A study of Mus musculus with 12 samples.

Results

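Immune checkpoint ligands are surface or secreted proteins by which tumour cells and myeloid cells restrain or tune T cells, natural killer cells and phagocytes. The 10 genes described here are Cd274 (PD-L1), Pdcd1lg2 (PD-L2), Cd80, Cd86, Cd276 (B7-H3), Vsir (VISTA), Lgals9 (galectin-9), Cd47, Pvr (CD155) and Nectin2 (CD112). They were chosen by gene name from the deposited gene tables of a study of 4T1, a mouse mammary carcinoma line. All 10 had a row among the 24396 genes of the in vivo table, and 8 had one among the 22035 genes of the in vitro table. Pdcd1lg2 and Cd86 had no row in the in vitro table as used here, in which every gene had at least 2 counts summed over its 6 libraries.

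The study held 12 RNA libraries in 4 groups of 3. For the in vivo young and in vivo old groups, 4T1 cells that carry the fluorescent protein mNeonGreen were put into Balb/c mice of either age class through the tail vein, 5000 cells at a time, and 100000 cells per sample were recovered from the lungs by cell sorting after 4 weeks. For the in vitro groups, 4T1 cells seeded 24 h earlier were held for 72 h without serum in medium with 25% interstitial fluid extract (IFE) from lungs of young or old mice that bore 4T1 metastases. Cells of all 4 groups thus derive from 1 tumour line that arose in the Balb/c strain. The ages of the mice were not given in the sources used here, nor whether each library came from a mouse, culture or extract of its own, so p-values measure only the spread between libraries. In the labels, the in vitro libraries have titles with the term shNT, which the 4T1 protocols do not explain. The in vivo libraries summed to between 11679046 and 15053144 counts each, and the in vitro libraries to between 12299004 and 18129164. All 8 epithelial markers listed for the line were detected in every group, with summed levels of 3406 ± 79.0 CPM (depth-scaled counts, SD, n = 3) in young lungs, 4475 ± 46.2 CPM in old lungs, 2622 ± 19.5 CPM in young IFE and 2661 ± 100.5 CPM in old IFE. The in vivo libraries also held RNA of other cells, in amounts that differed between young and old hosts and are given beside the results they accompany.

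PD-L1 and PD-L2 bind PD-1 on T cells and dampen their activation, and interferon gamma is a classical inducer of PD-L1 through JAK kinases and IRF1. CD80 and CD86 are costimulators of antigen-presenting cells that engage the activating receptor CD28 and the inhibitory receptor CTLA-4. CD47 signals to SIRPα on phagocytes and limits engulfment, whereas PVR and nectin-2 engage the activating receptor CD226, and PVR also the inhibitory receptor TIGIT.

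Promoter windows of Cd274 and Lgals9 are shown because these 2 members held a motif of the interferon pathway, and genes of that pathway are counted beside the ligands below. The windows come from RefSeq on GRCm38.p6 and run from 250 bases before to 50 bases after an annotated start, and 8 of the 10 members matched an entry by symbol. Capitals mark matches to a pair of interferon regulatory factor half-sites, GAAANNGAA, read on either strand as TTCNNTTTC. The match in the Cd274 window (chr19:29367188-29367487, plus strand) began at position -76, and the matches in the Lgals9 window (chr11:78984875-78985174, minus strand) began at -54 and 17, where the start base is 1.
Cd274: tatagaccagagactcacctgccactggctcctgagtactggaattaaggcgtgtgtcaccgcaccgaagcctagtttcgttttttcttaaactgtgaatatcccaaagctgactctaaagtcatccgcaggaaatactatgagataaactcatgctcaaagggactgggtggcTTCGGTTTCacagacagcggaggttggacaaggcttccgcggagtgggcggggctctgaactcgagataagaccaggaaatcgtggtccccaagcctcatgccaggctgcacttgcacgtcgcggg
Lgals9: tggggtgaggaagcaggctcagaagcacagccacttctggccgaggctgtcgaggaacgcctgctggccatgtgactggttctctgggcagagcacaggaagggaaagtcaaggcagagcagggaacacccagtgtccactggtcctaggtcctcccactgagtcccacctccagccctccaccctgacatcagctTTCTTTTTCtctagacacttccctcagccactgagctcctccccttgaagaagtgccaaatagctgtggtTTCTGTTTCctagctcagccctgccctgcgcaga
This motif was found in 8.56% of all 32851 promoter windows of the same length. None of the 8 members' windows held the gamma-activated site TTCNNNGAA (8.3% of all windows), the TEAD site GGAATG (14.7%) or the NF-kB site GGANTTTCC (1.25%), each searched on both strands. The matches describe the letters in these windows and were not tested as binding sites.

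Ligands found in culture were separated from those seen only in lung libraries by whether they passed the default expression filter of edgeR in the 6 libraries of each setting. All 10 ligands passed in vivo. In culture 7 passed, namely Cd274, Cd276, Vsir, Lgals9, Cd47, Pvr and Nectin2. The 3 ligands seen only in lung libraries were Pdcd1lg2 and Cd86, with no row in culture, and Cd80, which had 3 to 8 reads in each culture library and did not pass. The same 7 were found in culture with a mean of 0.5 CPM or more in either culture group, and 6 with a mean of 1 FPKM (depth-scaled fragments per kilobase) or more, which Vsir missed. In vivo, Pdcd1lg2 and Cd80 passed through the young libraries alone, so that a difference between the age groups was built into their passing.

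On the length-corrected FPKM scale, Cd47 was the most abundant ligand in every group, at 40.7 ± 0.880 in young lungs, 39.3 ± 0.870 in old lungs, 44.0 ± 0.182 in young IFE and 44.3 ± 6.07 in old IFE (SD, n = 3 each). The FPKM tables of the settings were made separately, so the order is given within each group. In young lungs the order of mean FPKM below Cd47 was Lgals9, Cd276, Pvr, Cd274, Nectin2, Vsir, Cd86, Pdcd1lg2 and Cd80, and only the last 2 neighbours had overlapping ranges. In old lungs Nectin2 stood above Cd274, and the neighbours that overlapped were Cd274 with Vsir, Cd86 with Cd80, and Cd80 with Pdcd1lg2. The culture order was Cd47, Cd276, Nectin2, Pvr, Lgals9, Cd274, Vsir and Cd80 with either extract. Nectin2 and Pvr overlapped in both culture groups, and Cd47 and Cd276 overlapped in old IFE. Lgals9 thus ranked second in lung libraries, at 34.5 FPKM in young and 28.2 FPKM in old, and below Pvr in culture, at 2.14 and 2.97 FPKM.

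**Figure D1:**
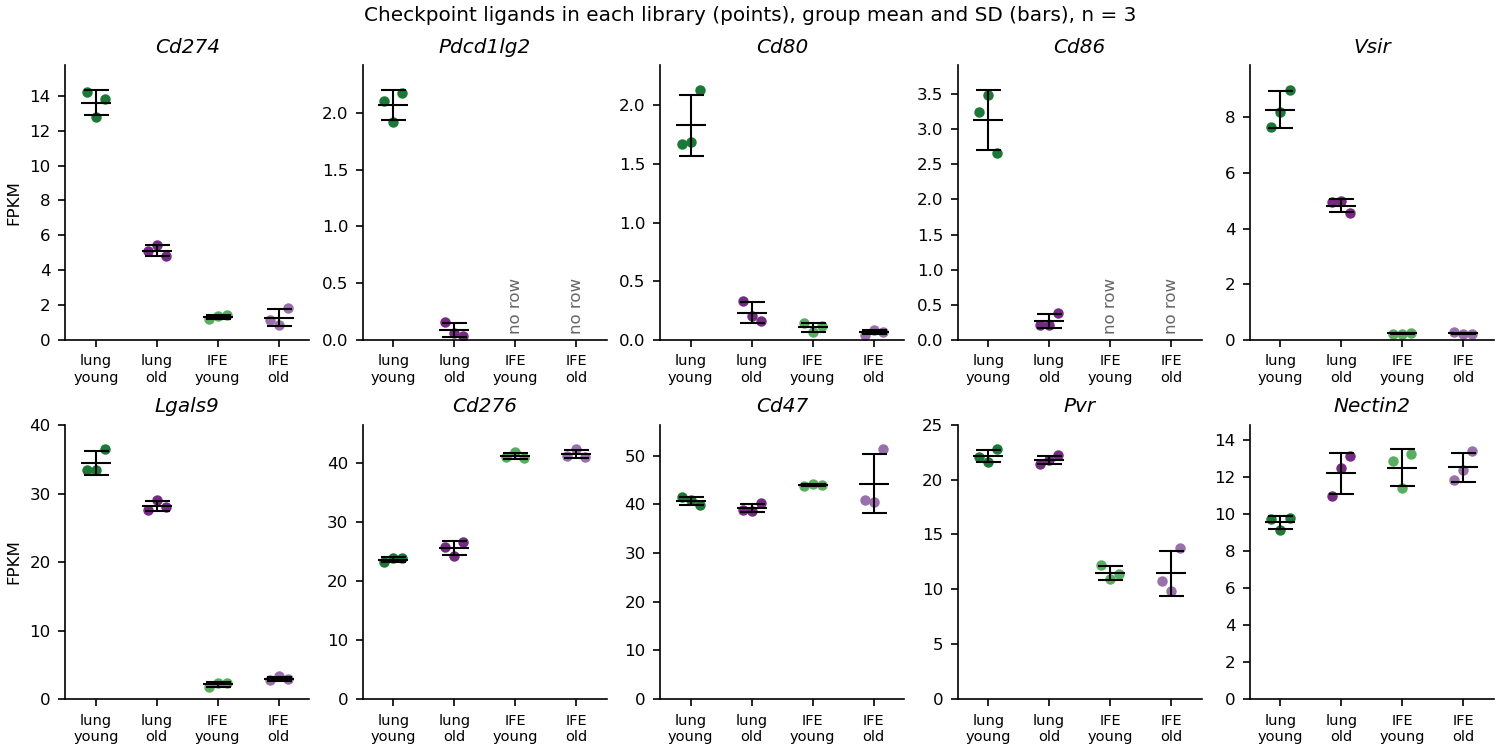
FPKM of each ligand (vertical axis, linear from 0, with its own range per gene) in the 12 libraries by group. Points are libraries, bars are the group mean and SD (n = 3), and "no row" marks genes without a row in the in vitro table. Cd274, Pdcd1lg2, Cd80, Cd86, Vsir and Lgals9 are highest in young lungs, whereas Cd47 lies between 38.63 and 51.29 FPKM in all libraries.

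The comparison of old with young hosts asked which ligands differed in cells recovered from lungs. Of the 10 ligands tested, 8 were called at an adjusted p under 0.05 by edgeR's quasi-likelihood test, against 40% of all 14096 genes tested. Of these, 6 were lower in old lungs, against 20.4% of genes, and 2 were higher, against 19.6%. The old and young libraries did not overlap for 8 ligands, against 47.7% of genes. The median log2 fold change over the 10 was -0.53, and over all genes 0.0019. Of the 6 lower ligands, Pdcd1lg2 and Cd80 passed the filter through the young libraries alone. Part of these counts and of the median was thus built into their passing. The other 4 lower ligands passed in both age groups. The called ligands ran from Pdcd1lg2, at 23.6 times the old level in young lungs, to Nectin2, at 1.28 times the young level in old lungs. In bulk RNA, fewer cells of a type and less RNA per cell cannot be told apart, and the summed macrophage markers of the same libraries stood at 812.4 ± 8.87 CPM in young and 94.0 ± 3.30 CPM in old lungs (SD, n = 3 each).

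**Figure D2:**
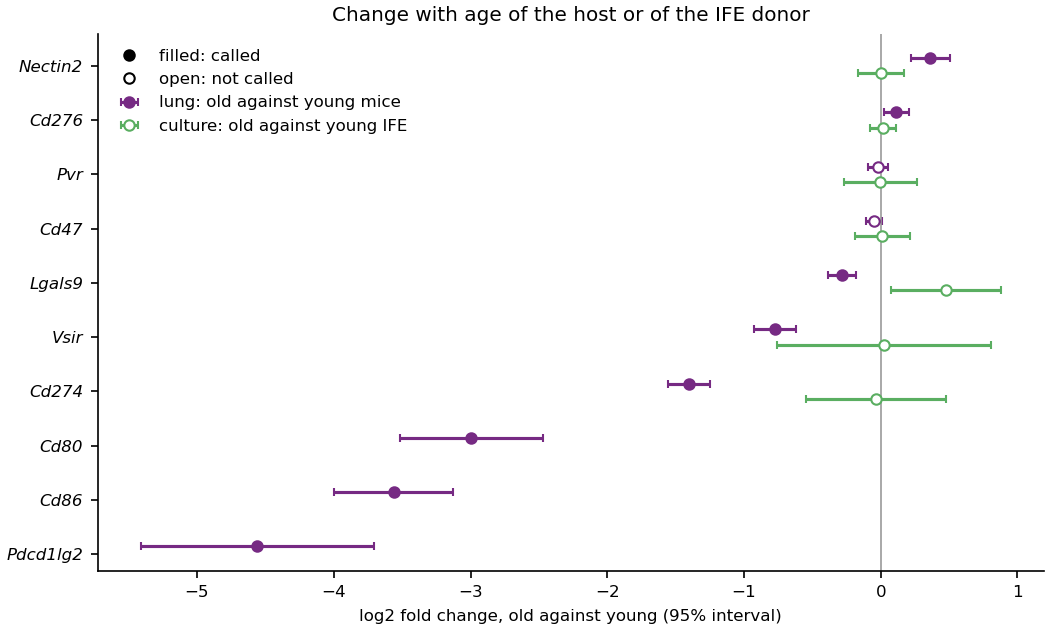
Log2 fold change of each ligand, old against young (horizontal axis), in lung libraries (purple) and in culture with IFE (green). Bars are 95% intervals computed from the F statistic of the edgeR test. Filled points are called at an adjusted p under 0.05. All called points are from lung libraries, and the culture points lie between -0.03 and 0.48.

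The PD-1 ligands were lower in old lungs. Cd274 (ENSMUSG00000016496, chromosome 19, 29344855 to 29365495 on the plus strand in the files' coordinates, build not given) stood at 57.3, 51.8 and 55.8 CPM in the young libraries and at 20.5, 22.1 and 19.6 CPM in the old ones. All young libraries stood above all old ones. The log2 fold change was -1.40 (SE 0.078, adjusted p = 1.8e-30), so young lungs held 2.65 times the old level. Pdcd1lg2 (ENSMUSG00000016498, 29388319 to 29448561 on the same strand) had 61, 62 and 72 reads in the young libraries and 4, 2 and 1 in the old ones. With 195 against 7 reads in all, the ratio of young to old after scaling for depth was 25.0, with an exact 95% interval from 11.9 to 62.9 that covers counting error only. The fitted log2 fold change of Pdcd1lg2 was -4.56 (SE 0.429, adjusted p = 2.2e-16). Summed over both genes, PD-1 ligand RNA was 15.7 ± 0.841 FPKM in young and 5.20 ± 0.315 FPKM in old lungs (SD, n = 3 each), of which Cd274 gave 13.6 and 5.11 FPKM.

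Cd80 and Cd86, the ligands of CD28 and CTLA-4, were also lower in old lungs. Cd86 (ENSMUSG00000022901, chromosome 16, 36424231 to 36486443 on the minus strand) had 175, 210 and 164 reads in young and 10, 12 and 19 in old libraries, with means of 12.8 ± 1.75 and 1.08 ± 0.403 CPM. Its log2 fold change was -3.56 (SE 0.220, adjusted p = 4.4e-27). Cd80 (ENSMUSG00000075122, chromosome 16, 38275923 to 38316697 on the plus strand) had 91, 103 and 133 reads in young and 16, 12 and 8 in old libraries. Its log2 fold change was -2.99 (SE 0.263, adjusted p = 6.1e-18), and the groups did not overlap. Their summed level was 4.96 ± 0.203 FPKM in young and 0.494 ± 0.078 FPKM in old lungs.

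Among the ligands with other receptors, Vsir and Lgals9 were lower in old lungs by smaller amounts. Vsir (ENSMUSG00000020101, chromosome 10, 60182630 to 60208463 on the plus strand) encodes VISTA, a checkpoint protein best known from myeloid cells, and stood at 42.8, 45.9 and 50.2 CPM in young and 27.7, 28.0 and 25.6 CPM in old libraries. The log2 fold change was -0.77 (SE 0.077, adjusted p = 3.4e-15). Lgals9 (ENSMUSG00000001123, chromosome 11, 78853800 to 78875772 on the minus strand) encodes galectin-9, a ligand of TIM-3, and fell from 79.6, 79.9 and 87.0 CPM to 65.9, 69.6 and 67.3 CPM. Its log2 fold change of -0.28 (SE 0.052, adjusted p = 3.6e-06) was past 0 in the quasi-likelihood test, but not past a fold of 1.2 (adjusted p = 0.59). The old and young libraries of both genes did not overlap.

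Nectin2 and Cd276 were higher in old lungs. In the same libraries the summed epithelial markers of the line stood at 3406 ± 79.0 CPM in young and 4475 ± 46.2 CPM in old lungs (SD, n = 3 each). Whether the share of tumour cell RNA bore on the levels of these ligands, or of Cd47 and Pvr below, was not tested. Nectin2 (ENSMUSG00000062300, chromosome 7, 19450569 to 19484408 on the minus strand) stood at 37.8, 35.7 and 38.0 CPM in young and 42.8, 48.8 and 51.4 CPM in old libraries. The log2 fold change was 0.36 (SE 0.072, adjusted p = 1.4e-05), a rise of 1.28-fold that was not called against a fold of 1.2 (adjusted p = 0.16). Cd276 (ENSMUSG00000035914, chromosome 9, 58431581 to 58462720 on the minus strand) encodes B7-H3, a B7 family member of many carcinomas whose receptor is not settled. It stood at 94.6, 97.8 and 97.6 CPM in young and 105.6, 99.6 and 109.5 CPM in old libraries, with a log2 fold change of 0.12 (SE 0.046). Its call was marginal (adjusted p = 0.035) and was lost with DESeq2 (adjusted p = 0.094), with no filter (0.063), with FPKM values (0.10 and 0.11 by limma) and when any of 5 of the 6 libraries was left out, with adjusted p up to 0.18.

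Cd47 and Pvr were not called. Cd47 (ENSMUSG00000055447, chromosome 16, 49620896 to 49735373 on the plus strand) stood at 289.9, 286.9 and 278.5 CPM in young and 272.7, 271.9 and 283.3 CPM in old libraries. The groups overlapped, and the 95% interval of the log2 difference ran from -0.11 to 0.012 (adjusted p = 0.21). Pvr (ENSMUSG00000040511, chromosome 7, 19637503 to 19655085 on the minus strand) had means of 151.2 ± 3.76 and 149.4 ± 3.08 CPM, with an interval from -0.093 to 0.057 (adjusted p = 0.74). Neither interval reached the change seen for Lgals9. The summed FPKM of Pvr and Nectin2 was 31.7 ± 0.869 in young and 34.0 ± 1.51 in old lungs.

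Markers of macrophages and monocytes moved with the age groups in the same libraries. All 13 of 15 listed markers that passed the filter were lower in old lungs, against 20.4% of all genes, with a median log2 fold change of -3.29. Marco and Siglecf did not pass, and stood at 0.050 and 0.352 CPM in young and at 0.586 and 0.390 CPM in old lungs. The markers were not checked for passing through the young libraries alone. Ms4a7, among the 13, stood at 0.259, 0.626 and 0.814 CPM in the old libraries. The summed level over all 15 markers ranged from 804.0 to 821.7 CPM in young and from 90.3 to 96.5 CPM in old libraries, a ratio of 8.64. No marker was at 0 in either group. In culture 10 of the 15, Adgre1, C1qa, C1qb, C1qc and Ccr2 among them, were at 0 or had no row. Of 4 dendritic cell markers tested 2 were lower in old, against 20.4% of all genes. The 9 listed summed to 46.4 to 49.9 CPM in young and 19.5 to 25.1 CPM in old lungs. Neutrophil markers summed to 43.6 to 50.01 and 47.1 to 51.5 CPM, and T cell markers to 5.16 to 5.99 and 3.62 to 5.70 CPM. In culture the T cell markers summed to 5.69 CPM in young IFE and 5.45 CPM in old IFE, of which Lck gave 5.3 and 5.245 CPM. The part of macrophages and other leukocytes in the ligand differences was not tested.

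The ligands differed in how their level related to the macrophage markers. As a percentage of the summed macrophage markers, Cd86 stood at 1.57 ± 0.210% in young and 1.15 ± 0.415% in old lungs, and Cd80 at 0.931 ± 0.133% and 1.03 ± 0.445% (SD, n = 3 each), with overlapping groups for both genes. Pdcd1lg2 stood at 0.558 ± 0.039% and 0.204 ± 0.157%, without overlap, though on 7 old reads. For Cd274 the percentage was higher in old lungs, 22.1 ± 1.27% against 6.77 ± 0.418%. The same held for Vsir, with 28.9 ± 1.87% against 5.70 ± 0.444%, and for Lgals9, with 71.9 ± 1.15% against 10.1 ± 0.528%. Cd274, Vsir and Lgals9 therefore fell less than the sum of these markers did. Single markers differed, and Mertk had a log2 fold change of -1.26 (SE 0.156), beside -1.40 for Cd274. Which cells held the RNA of these ligands was not tested. In culture the macrophage markers summed to 4.91 CPM in young IFE and 5.04 CPM in old IFE, of which Cd68 gave 4.213 and 3.695 CPM. Against the summed dendritic cell markers, whose young sum was 2.18 times the old one, the picture differed. That sum fell mostly through Itgax, at 30.9 CPM in young and 5.69 CPM in old lungs. Batf3 stood at 5.65 and 3.51 CPM, whereas Zbtb46 stood at 8.49 and 10.5 CPM and Ccr7 at 1.35 and 1.46 CPM. In culture the dendritic cell markers summed to 6.15 CPM in young IFE and 6.80 CPM in old IFE, of which Zbtb46 gave 5.10 and 5.45 CPM. The dendritic cell sum of the lung libraries thus includes a gene that the cultured line also expressed. Cd86 stood at 26.7 ± 2.86% of the dendritic cell sum in young and 5.01 ± 2.04% in old lungs. Cd80 stood at 15.9 ± 2.71% and 4.29 ± 1.21%, without overlap for either gene. Pdcd1lg2 stood at 9.50 ± 0.943% and 0.825 ± 0.504%, again without overlap. Cd274 stood at 115.2 ± 9.92% and 95.9 ± 16.0%, with overlapping groups, and Vsir and Lgals9 stood higher in old lungs.

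**Figure D3:**
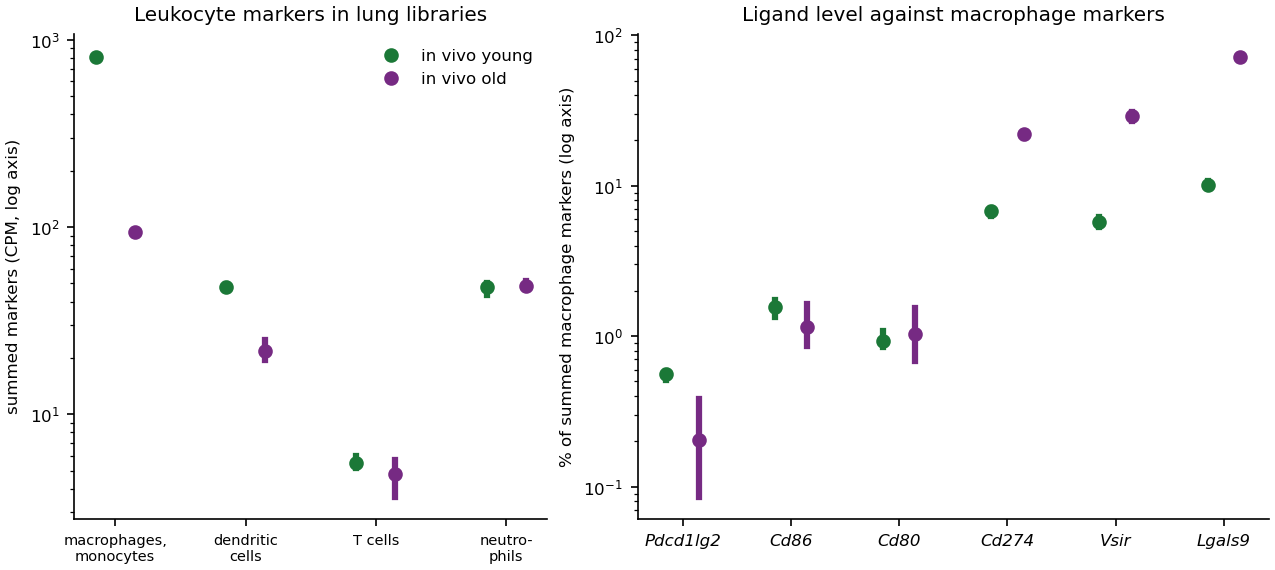
Left, summed level of leukocyte marker lists in young and old lung libraries (CPM, log axis). Right, level of 6 ligands as a percentage of the summed macrophage markers (log axis); points are group means and vertical bars run from the lowest to the highest of 3 libraries. Macrophage markers stand at 812.4 CPM in young and 93.99 CPM in old lungs, and Cd274, Vsir and Lgals9 stand at a higher percentage of them in old lungs.

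Cd274 and Pdcd1lg2 lie next to each other on chromosome 19, so the 12 genes of the in vivo table within 250 kb of their span were read together. Apart from the 2 ligands, 7 were called, against 40% of all genes tested. The largest log2 fold changes were those of 2 long non-coding RNAs on the opposite strand, Gm36043 inside the Cd274 span (-1.62, SE 0.230) and A930007I19Rik at the end of Pdcd1lg2 (-1.59, SE 0.382). The protocol describes both a stranded and an unstranded library, so it is not known whether reads of the overlapping stretches were kept apart by strand. In culture A930007I19Rik stood at 2.39 CPM in young IFE and 2.56 CPM in old IFE, while Pdcd1lg2 had no row. Gm36043 stood at 0.130 and 0.254 CPM there, beside 4.72 and 4.59 CPM for Cd274. Jak2, the kinase that carries the interferon gamma signal, lies upstream of Cd274 and had a log2 fold change of -0.30 (SE 0.030). Insl6, Ric1 and Ermp1 had log2 fold changes from -0.29 to -0.21 and the pseudogene Gm5518 had one of 0.42, all called. Plgrkt, Rcl1 and 9930021J03Rik were not called, though Plgrkt was called without in vivo young replicate 3 (adjusted p = 0.012). The call of Insl6 was lost when any of 3 libraries was left out (adjusted p up to 0.12) and with DESeq2 (0.064), and those of Ric1 and A930007I19Rik with limma on FPKM (adjusted p from 0.064 to 0.078).

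**Figure D4:**
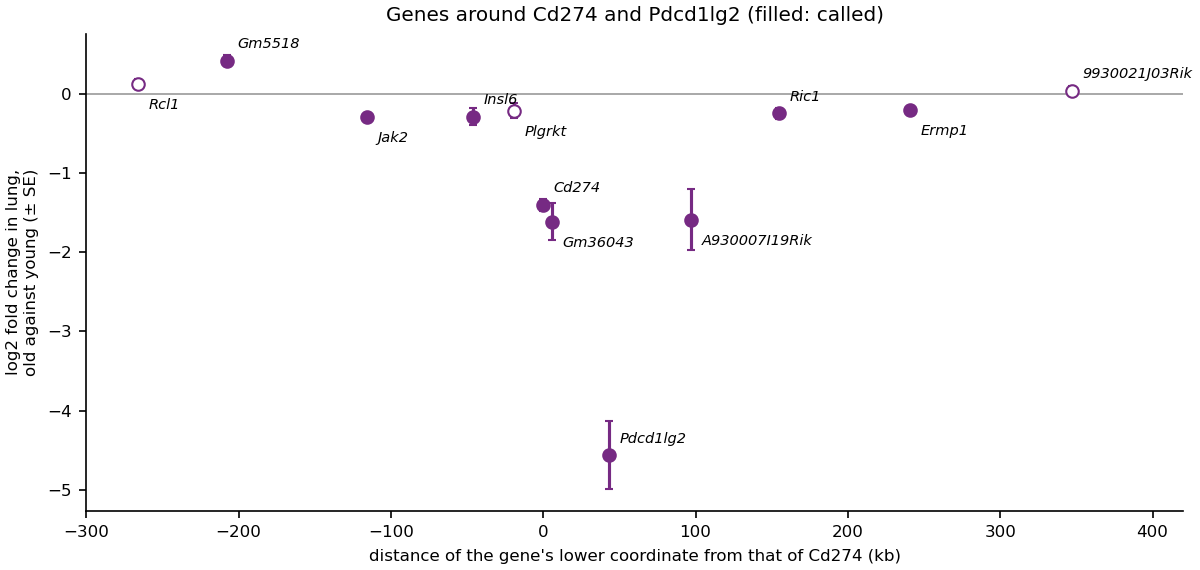
Log2 fold change in lung libraries, old against young (vertical axis, bars are SE), of the genes around Cd274 and Pdcd1lg2, by distance from the Cd274 gene's lower coordinate in kb (horizontal axis). Filled points are called. The 2 ligands and the 2 non-coding RNAs that overlap them lie at -1.40 or below, and the other genes between -0.30 and 0.42.

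In culture, the comparison of old with young IFE asked whether extract from old lungs moved the same ligands. None of the 7 ligands tested was called by edgeR, and none by DESeq2, against 0.0839% of 13118 genes called by edgeR. Of the ligands, 1 (Lgals9) had an unadjusted p under 0.05, as did 929 of all genes. Lgals9 stood at 3.72, 5.05 and 4.98 CPM in young IFE and 5.84, 7.08 and 6.22 CPM in old IFE. Its log2 difference was 0.48 (SE 0.192, adjusted p = 0.59), and it was also the 1 ligand whose groups did not overlap, against 13.1% of genes. Cd274 stood at 4.24, 4.89 and 5.04 CPM in young IFE and at 4.08, 3.10 and 6.60 CPM in old IFE, where replicate 3 was highest.

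The precision in culture differed among the ligands. For Cd276, with 149.5 to 156.3 CPM in the 6 libraries, the 95% interval of the log2 difference ran from -0.081 to 0.11. The interval was -0.16 to 0.17 for Nectin2, -0.19 to 0.21 for Cd47 and -0.27 to 0.27 for Pvr. It was -0.55 to 0.48 for Cd274 and -0.76 to 0.81 for Vsir, which had 13 to 24 reads per library, so that only large changes were detectable at this depth. Replicate 3 of old IFE held the highest Cd47 (322.6 against 256.7 to 277.9 CPM elsewhere in culture) and the highest Pvr (84.6 against 60.7 to 75.2 CPM). Without it the log2 difference of Cd47 was -0.10 (adjusted p = 0.21), and 183 in place of 11 genes were called in culture, none of them a ligand.

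The difference of the old-against-young change between the settings was tested over all 12 libraries for the 8 ligands in both tables. It was called for 5 of the 8, against 17.5% of 14318 genes. The value, in vivo minus in vitro on the log2 scale, was -1.38 for Cd274 (SE 0.221, adjusted p = 4.9e-05) and -0.76 for Lgals9 (SE 0.152, adjusted p = 0.00045). Both kept their call whichever of the 12 libraries was left out. It was -2.21 for Cd80 (SE 0.720, adjusted p = 0.029), which did not pass the filter in culture and entered through the young lung libraries where it was high, so that its difference was partly built in. The value was -0.80 for Vsir (SE 0.283, adjusted p = 0.045) and 0.36 for Nectin2 (SE 0.111, adjusted p = 0.022). Each of these 3 lost its call without 1 of several libraries, with adjusted p up to 0.091, 0.17 and 0.11, and Vsir also with DESeq2 (adjusted p = 0.057) and with no filter (0.065). Cd276, Cd47 and Pvr were not called.

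Lung and culture were compared within each age label on the reads of both tables. Cell source, sorting, table and a batch tag of the labels, which reads in vivo or in vitro and nothing more, coincide in this comparison and cannot be told apart. In young groups 6 of 8 ligands were higher in lung libraries, against 39.3% of genes, and 1 was lower, against 36.9%. In old groups 6 of 8 were higher, against 38.6%, and 1 was lower, against 36.1%. With the called ligands restricted to those whose mean FPKM, scaled within each table, had the same direction, a restriction chosen after the values were seen, 5 were higher and 1 lower in either age group, without Cd47 in young and without Nectin2 in old. Vsir differed most, at 44.4-fold higher in young and 25.4-fold higher in old lungs (log2 5.47, SE 0.149, and 4.67, SE 0.153). Lgals9 was 19.8-fold and 11.7-fold higher, and Cd274 12.8-fold and 4.92-fold. Cd80 was 19.9-fold and 4.31-fold higher on 11 to 18 culture reads per group. It did not pass the filter in culture and entered this fit through the young lung libraries where it was high. Its difference in the young groups was therefore partly built in, and Cd80 is counted among the higher ligands of both age groups.

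Pvr was 2.35-fold and 2.32-fold higher in lung libraries (adjusted p = 8.9e-08 and 1.1e-07). Cd276 was the ligand that was lower there, with log2 values of -0.51 (SE 0.047) in young and -0.41 (SE 0.047) in old. Cd47 was 1.13-fold higher in young lungs (adjusted p = 0.031), a call lost when any of 5 libraries was left out (adjusted p up to 0.086). In the old groups Cd47 was not called (log2 0.12, SE 0.069, adjusted p = 0.14), but without old IFE replicate 3 it was 0.23 (adjusted p = 7.1e-08). Nectin2 was not called in young and 0.25 higher on the log2 scale in old (SE 0.078, adjusted p = 0.0039), which was lost without in vivo old replicate 3 (adjusted p = 0.082). The direction of these small differences of Cd47 and Nectin2 rests on the joint scaling of reads: mean FPKM, scaled separately in each table, was lower in lung than in culture for Cd47 in both age groups and for Nectin2 in the old groups (12.2 against 12.5).

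Genes of 4 lists around the ligands were counted beside them. Of 14 listed genes for interferon gamma signalling to PD-L1, 13 were tested in lung libraries, where 10 were lower in old, against 20.4% of all genes, and 1 higher, against 19.6%. The median log2 fold change was -0.30, against 0.0019 over all genes. Stat2, a transcription factor of interferon signalling, fell from 112.9 ± 1.86 to 55.1 ± 5.05 CPM (log2 -1.03, SE 0.051). Irf1, which acts on the PD-L1 promoter in human cells, fell from 545.0 ± 10.1 to 458.4 ± 10.8 CPM (-0.25, SE 0.025). Jak1 was the member that rose, by 0.18 (SE 0.034). Ifng itself had no row in the in vivo table as used here, and Stat3 and Ptpn2 were not called. Against a fold of 1.2, 6 of the list were lower and none higher, and Irf1 and Jak2 were not among the 6.

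Of 13 receptors and partners of the ligands, 7 were tested in lung libraries and 6 were lower in old, against 20.4% of all genes, with a median of -0.89 against 0.0019. Sirpa, the phagocyte receptor of CD47, fell from 84.9 ± 1.64 to 30.8 ± 1.63 CPM (log2 -1.47, SE 0.062), while its ligand Cd47 was not called. Havcr2, which encodes TIM-3, fell from 9.66 ± 0.790 to 2.12 ± 0.457 CPM, and Selplg, which encodes the VISTA partner PSGL-1, from 12.0 ± 2.28 to 3.96 ± 1.23 CPM. Tigit fell from 25.7 ± 0.948 to 18.8 ± 1.59 CPM (log2 -0.45, SE 0.096), and Thbs1, a ligand of CD47, was not called (adjusted p = 0.058). Against a fold of 1.2, 3 of these receptors and partners were lower. The macrophage marker sums given above moved with these genes as well. In culture Sirpa stood at 16.27 CPM in young IFE and 17.44 CPM in old IFE, and Tigit at 15.35 and 14.82 CPM. Havcr2 stood at 1.005 and 1.415 CPM there, and Selplg at 0.215 and 0.0673 CPM.

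Of 19 other checkpoint ligands, 14 were tested in lung libraries, with 7 lower in old, against 20.4% of all genes, 3 higher, against 19.6%, and a median of -0.25 against 0.0019. Of the 7, the 3 genes Cd48, Ceacam1 and Btnl2 passed the filter through the young libraries alone, so that their lower level, and with it part of the count and the median, was built into their passing. The other 4 did not, and neither did any tested gene of the other 3 lists. H2-T23, which encodes the NKG2A ligand Qa-1, fell from 243.6 ± 12.3 to 138.8 ± 2.64 CPM (log2 -0.81, SE 0.035). The log2 fold change was -2.96 (SE 0.315) for Cd48 and -2.27 (SE 0.430) for Ceacam1, both from under 6 CPM. Cd24a, whose human counterpart signals to phagocytes through a Siglec receptor, rose by 0.27 (SE 0.033). Against a fold of 1.2 none of this list was higher, and with limma on FPKM values 1 was.

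Of 14 regulators of PD-L1 and CD47 protein, all were tested, with 4 higher, against 19.6% of all genes, 4 lower, against 20.4%, and a median of 0.03 against 0.0019. Their roles are known from human cells. Stt3a, a subunit of the oligosaccharyltransferase that glycosylates PD-L1, had a log2 fold change of -0.28 (SE 0.025), and the glycosyltransferase B3gnt3 one of -0.31 (SE 0.042). Cmtm4, which stabilises PD-L1, rose by 0.29 (SE 0.038), and Hip1r, which sends it to lysosomes, by 0.57 (SE 0.092). Cmtm6 and Qpctl, which act on PD-L1 and CD47, were not called. Against a fold of 1.2, 1 gene of this list was higher and none lower. In culture, edgeR called none of the tested genes of the 4 lists, which were 13 for interferon gamma signalling, 6 receptors and partners, 10 other ligands and 14 regulators.

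**Figure D5:**
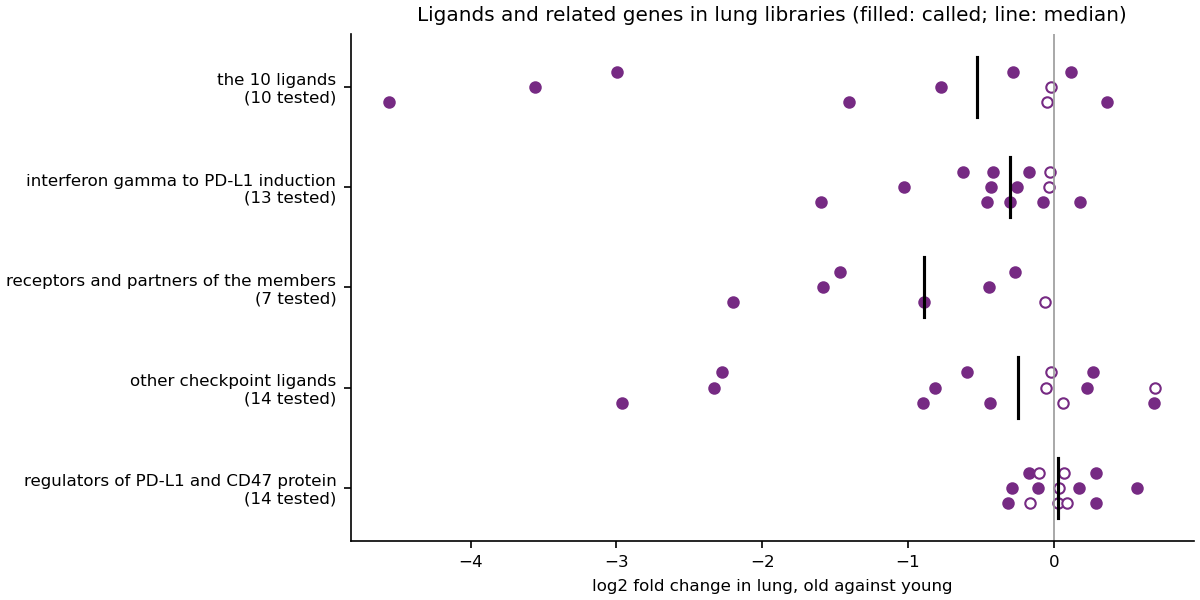
Log2 fold change in lung libraries, old against young (horizontal axis), of each tested gene of the 10 ligands and of 4 lists. Each point is a gene, filled if called, and the vertical line is the median of its list. The medians are -0.53 for the ligands, -0.30 for interferon gamma signalling, -0.89 for receptors and partners, -0.25 for other ligands and 0.03 for protein regulators. The ligands and the other ligands include genes that passed the filter through the young libraries alone, so part of their medians was built in.

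Likeness of profile was measured over the 12 libraries as the root mean square difference of log2 values of CPM plus 0.5, after each gene was centred on its own mean, among 10957 protein-coding genes of 2 CPM or more. Nearest to Cd274 were Pik3r5 (0.193), Ifi47 (0.213), Ifi44 (0.233), Lifr (0.246) and Hspa1a (0.248), of which Lifr and Hspa1a stood below 0.3 CPM in culture. Ifi47 and Ifi44, both interferon-inducible genes, went from 89.97 to 35.4 and from 65.3 to 34.9 CPM between young and old lungs, against 55.0 to 20.7 CPM for Cd274. Among the nearest to Cd47 were Trip11 (0.040), Lrig1 (0.045), Tra2a (0.046) and Tut7 (0.057), all of near-constant level. For Pdcd1lg2 the measure was taken over the 6 in vivo libraries, a choice made after its missing culture row was seen. The nearest genes were Evl, Arg1, Itga9, Ptprc and Hcls1 (0.108 to 0.125). Pdcd1lg2 stood at 4.53 CPM in young and 0.188 CPM in old lungs. The 0.5 added to each value exceeds that old level and narrows the fall of Pdcd1lg2 in this measure, so its nearest genes depend on that setting. Other added values were not tried. Ptprc encodes the pan-leukocyte protein CD45, and it stood at 57.0 CPM in young and 8.20 CPM in old lungs.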

How the data were processed

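The authors deposited, for each setting, raw counts per gene, values normalized as a signal (count divided by 1 size factor per library) and FPKM. HISAT2 2.0.5, featureCounts 1.5.0-p3 and DESeq2 are named, per the submitters' processing notes, beside a human build, while the rows are mouse Ensembl genes. Count columns covered 5 of the 6 in vivo libraries. For young replicate 3, reads were recovered from the deposited normalized signal, where 100% of values were whole within 0.001 reads and, in the other 5, equal to the deposited counts.

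Old and young were compared within the 6 libraries of a setting, and settings in a joint fit of all 12 libraries over the 20187 shared genes, with edgeR 4.0.16 in R 4.3.3 (default filter, TMM scaling, robust quasi-likelihood F-test) and Benjamini-Hochberg adjustment over all genes tested. Called means an adjusted p under 0.05. Intervals are 95%. CPM uses TMM-scaled totals. Alternatives were RLE scaling, DESeq2 1.42.0, no filter, a fold of 1.2, a replicate block, limma 3.58.1 on log2(FPKM + 0.1) and log2(FPKM + 1), and leaving out each library. The fit was tested on simulated counts. Named genes are the 10 ligands, up to 4 called genes of lowest p per list, genes within 250 kb of Cd274 and Pdcd1lg2, and the 5 nearest profiles of Cd274, Cd47 and Pdcd1lg2; any other gene was chosen after its values were seen. Some genes under this rule are not reported here. The members and lists were chosen with earlier results of these data known.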

Additional observations from a re-analysis of the deposited data

Results flagged for a closer look

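For 5 ligands the change with age differed between lung and culture by a test of the difference itself, edgeR's interaction contrast over 12 libraries. On the log2 scale, in vivo minus in vitro, the difference was -1.38 for Cd274, -2.21 for Cd80, -0.80 for Vsir, -0.76 for Lgals9 and 0.36 for Nectin2. In culture the 95% interval of the log2 difference ran from -0.55 to 0.48 for Cd274, from -0.76 to 0.81 for Vsir and from -0.16 to 0.17 for Nectin2. For Lgals9 the directions were opposite, with a called fall in lungs and a log2 difference of 0.48 in culture that was not called. For Cd80 the culture side rested on 18 reads in young IFE and 11 in old IFE. Cd80 did not pass the filter in culture and entered the test through the young lung libraries where it was high, so that its difference was partly built in.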

How the results depend on the processing

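The 8 ligand calls in vivo became 5 against a fold of 1.2 and 7 to 8 without 1 library. The 5 calls between settings became 2 against a fold of 1.2 (Cd274 and Lgals9) and 2 to 5 without 1 library. Genes called against a fold of 1.2 numbered 1853 in place of 5639 in vivo and 611 in place of 2501 between settings. In culture the 11 genes called became 25 with DESeq2, 70 with no filter, 0 against a fold of 1.2, 4 and 1 with FPKM, and 1 to 183 without 1 library. Signs turned for uncalled ligands. In culture Pvr was 0.0020 with no filter, and without 1 library the log2 difference ran from -0.15 to 0.092 for Pvr, -0.38 to 0.17 for Cd274, -0.100 to 0.091 for Vsir, -0.060 to 0.045 for Nectin2, -0.00065 to 0.025 for Cd276 and -0.10 to 0.069 for Cd47. In lungs Pvr ran from -0.033 to 0.0019, and between settings Pvr ran from -0.12 to 0.13 and Cd47 from -0.13 to 0.053. The cause was not tested. RLE scaling moved the median of all genes by under 0.1. Depth limits Pdcd1lg2, Cd80 and Cd86 in old lungs and Vsir in culture.

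Libraries of the same replicate number did not deviate together (correlations from -0.027 to 0.031). A replicate block left 8 ligands called in vivo, 0 in culture and 4 between settings, where Vsir had an adjusted p of 0.052, and 7 in place of 11 genes called in culture.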

Other observations

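Markers of other cells in the sorted lung libraries moved in several directions between young and old hosts. The counts of called markers below stand against 19.6% of all genes higher and 20.4% lower in old lungs. Alveolar and airway epithelium markers, with 6 of 8 tested higher and none lower, summed to 29.1 ± 1.32 CPM in young and 86.8 ± 5.37 CPM in old lungs. Endothelial markers summed to 22.9 ± 1.34 and 30.3 ± 1.58 CPM, with 2 of 7 tested higher. Fibroblast and pericyte markers summed to 278.6 ± 9.93 and 325.7 ± 4.89 CPM, with 4 of 6 higher and 2 lower. Pdgfra gave 157.7 and 140.5 CPM of these sums. In culture this list summed to 19.35 CPM in young IFE and 20.52 CPM in old IFE, of which Pdgfra gave 16.89 and 17.72 CPM. B cell and natural killer cell markers stayed under 6 CPM in sum in the lung libraries. In culture the natural killer cell list stood at 6.35 CPM in young IFE and 6.71 CPM in old IFE, all of it Eomes. Of the 8 epithelial markers of the line, 7 were higher and Krt19 was lower in old lungs.

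In culture some genes of the lists had an unadjusted p under 0.05 without a call by edgeR. Thbs1, the CD47 ligand, stood at 127.5 ± 3.91 CPM in young and 178.5 ± 29.9 CPM in old IFE, with replicate 3 of old IFE at 212.8 CPM (log2 0.49, SE 0.121, adjusted p = 0.52). That library also held the highest Cd47 and Pvr in culture.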
